A study of Sus scrofa with 41 samples.

Results

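The cytosolic ribosomal protein genes encode the protein part of the ribosome that translates nuclear-encoded mRNA. They were taken by their pig gene symbols, which begin with RPL or RPS followed by a number, P or A. Of 61 matching symbols, 10 named RPS6K kinases and 6 named paralogs with like endings (RPL10L, RPL26L1, RPL36AL, RPL3L, RPL7L1 and RPS27L), and both kinds were left out. This left 45 genes of the 25880 in the files, and 41 of them had enough counts to be tested. The 4 that did not were RPL29 and RPS27A, which were at 0 counts in every pig, RPS21 with 0 to 1 counts and RPS2 with 0 to 11 counts. A further 32 symbols that RefSeq lists under the same pattern, among them RPS6, RPL13A, RPL32 and RPL8, were not paired with a gene ID in the tables used and were not analysed here.

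Every ribosome holds a single copy of nearly all of these proteins, bound to ribosomal RNA in a large and a small subunit. Several copies of the acidic proteins form the lateral stalk of the large subunit, where translation factors dock. The mRNAs of ribosomal proteins begin with a tract of pyrimidines (the TOP motif) through which the kinase complex mTORC1 and the protein LARP1 control their translation and stability, so that the set is made together. In skeletal muscle the number of ribosomes is a limit on protein synthesis and rises during growth.

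The levels came from bulk RNA of the psoas major muscle of 41 purebred, uncastrated male pigs, 13 Danbred Duroc and 28 Danbred Landrace, raised at the same breeding station, fed freely and slaughtered at about 100 kg in 5 batches. The pigs had no genetic modification or drug treatment in the labels, and each sample was a separate pig. Age at sampling was 131 to 156 days in the Duroc pigs and 147 to 166 days in the Landrace pigs, and the feed conversion ratio (FCR), read here from its size, near 2, as feed eaten per unit of growth although the study's methods word it as growth divided by feed, was 1.83 to 2.18 and 1.92 to 2.25. The RNA integrity number (RIN), a score of how intact the RNA was, ran from 7.0 to 8.8 and from 6.5 to 8.3.

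The values are counts of read pairs per gene, given below as CPM, a gene's pairs relative to the pig's total, with totals scaled by TMM, edgeR's factor for differences in composition. Each pig had 22188911 to 25954816 pairs on genes, and the lowest totals were those of Landrace 27 (RIN 6.6) and Duroc 10 (RIN 7.0). Markers of skeletal muscle summed to 98394 CPM or more in every pig, here without TMM scaling, so the labelled tissue was present throughout. All tests below come from a joint model of breed, RIN, age, FCR and batch over 11146 genes (edgeR's quasi-likelihood test with Benjamini-Hochberg adjustment, calls at an FDR under 0.1). A gene's change in bulk tissue cannot separate fewer cells of a type from less RNA per cell.

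Together the 45 genes took 0.902%, 1.08% and 1.21% of the pairs on genes in the Duroc pigs (lowest, median and highest) and 0.988%, 1.20% and 1.57% in the Landrace pigs. RPL29, RPS2, RPS21 and RPS27A added almost nothing to this share, because hardly any pairs were counted on them. The Landrace pigs lay higher, with overlap. Duroc 3 had the lowest share and the lowest level of 27 of the 41 tested genes. Landrace 27 had the highest level of 29 genes, and Landrace 24, with the highest share, of 6 more. The genes lie on 15 chromosomes, with 6 each on chromosomes 1 and 6 and 3 on X (RPL10, RPL36A and RPS4X). They were thus no cluster in the genome, yet they rose and fell together from pig to pig.

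**Figure D1:**
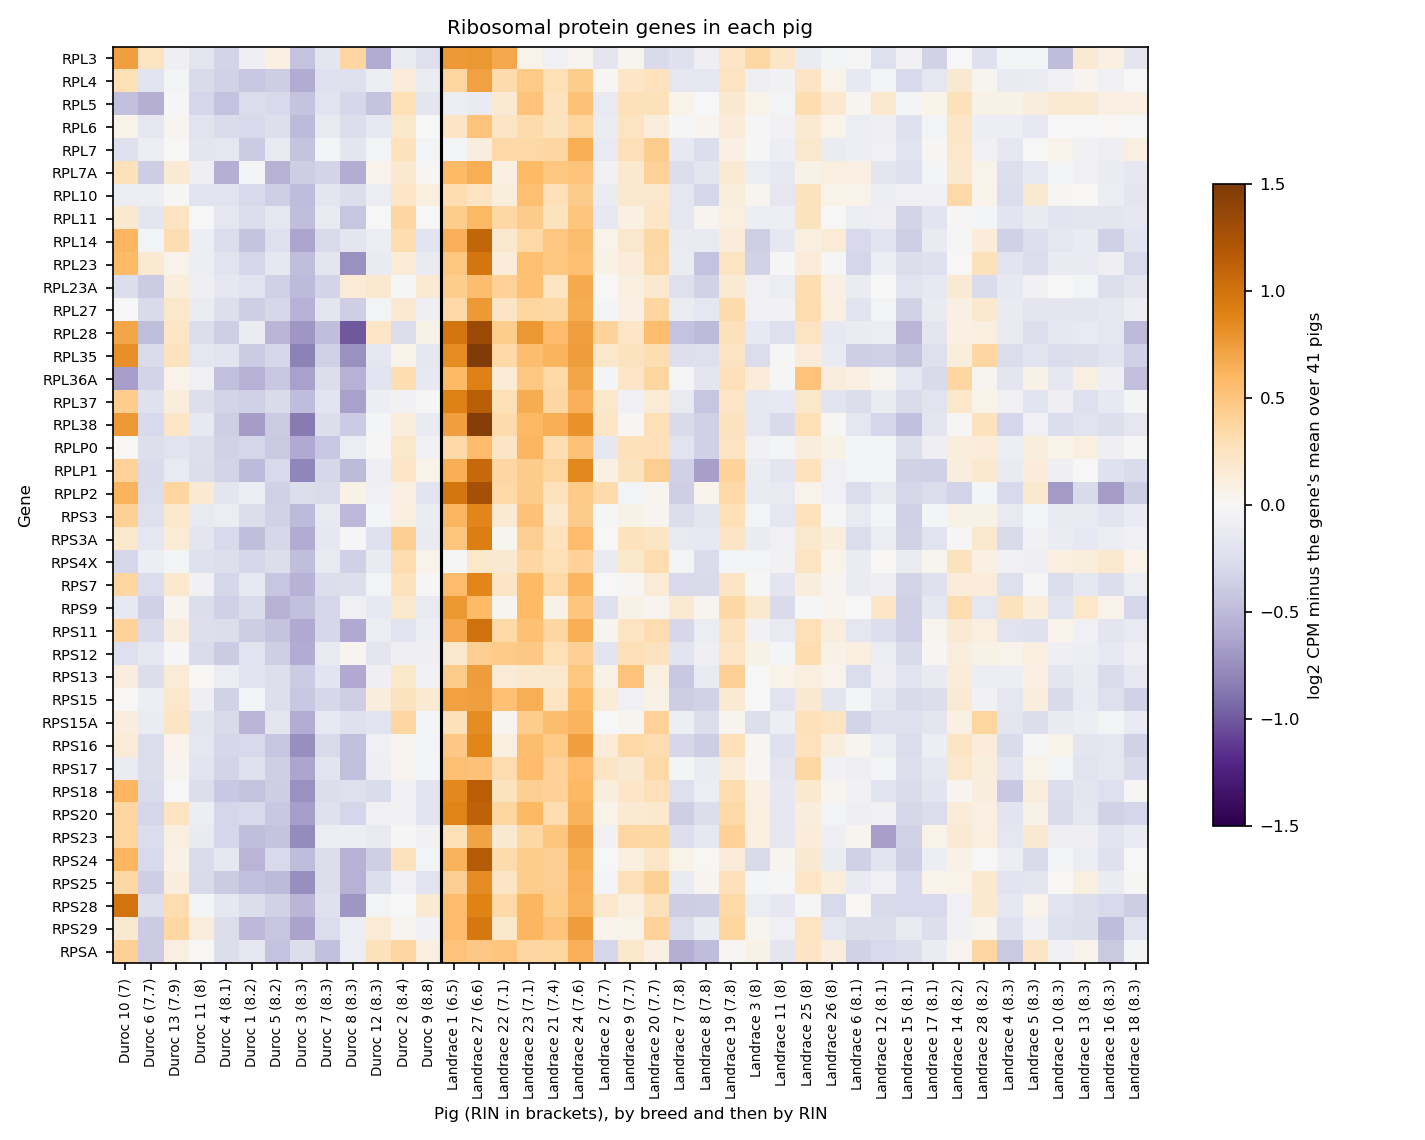
Level of 40 of the 41 tested ribosomal protein genes (rows) in each pig (columns, Duroc left of the line, Landrace right, ordered by RIN in brackets), as log2 CPM minus the gene's mean over 41 pigs. Most columns have a single colour from top to bottom: Duroc 3 is low and Landrace 27 high in nearly all genes, while RPL3 and RPL5 depart from the others in several pigs.

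This common movement was measured as Pearson's r between the log2 CPM values of each pair of genes over the 41 pigs. Its median over the 820 pairs was 0.81, against 0.00 over all pairs of tested genes, and 93.0% of the pairs were above 0.5, against 5.94%. After the joint model had removed breed, RIN, age, FCR and batch, the median was 0.44 and 40.6% of the pairs were above 0.5, against 2.64% of all pairs. These are descriptions, since all genes of a pig share its library and its scaling. RPL38, whose loss in mice alters the patterning of the skeleton, followed the others most closely, with a median r of 0.89 with the other members. RPL3, which lines the catalytic centre of the large subunit, followed them least, at 0.43 and at 0.04 after the model. RPL5 was next lowest, at 0.46 and 0.19.

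The coefficient of variation over pigs was 14.4% to 39.6% with a median of 23.3%, near the 24.3% of all tested genes. RPL6 (14.4%), RPS4X (14.7%), RPL10 (16.2%), RPL7 (16.5%) and RPS12 (17.1%) varied least. RPL35 (39.6%), RPL28 (37.9%), RPL38 (37.7%), RPLP2 (32.7%) and RPL37 (30.1%) varied most. RPLP0 (19.3%), RPL4 (19.5%) and RPS18 (29.8%), which are used as reference genes in quantitative PCR, lay between or close to these ends.

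The first comparison asked whether the breeds differ in these genes. Of the 41 genes, 38 were higher in the Landrace pigs and 0 were lower, where 15.6% of all tested genes were higher and 17.5% lower. At an unadjusted p under 0.05 stood 39 of the 41, against 37.2% of all genes. The median difference was 0.45 on the log2 scale (1.37-fold), against 0.00 over all tested genes. All parts of the ribosome took part: 16 of 17 genes of the large subunit outside the stalk (median 0.43), 20 of 21 of the small subunit (median 0.46) and 2 of 3 of the stalk. The 3 genes that did not pass were RPL3, RPLP2 and RPS28.

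RPL5 (chr4:124359786-124367612 on Sscrofa11.1) had the smallest p of all members. Together with RPL11 and a ribosomal RNA it forms a particle that, when free, also binds the p53 regulator MDM2. Its lowest, median and highest levels were 131, 157 and 239 CPM in the Duroc pigs and 178, 209 and 279 CPM in the Landrace pigs. All 28 Landrace pigs were above the Duroc median and 11 of the 13 Duroc pigs were below the lowest Landrace pig, so the overlap was small. The adjusted difference, Landrace minus Duroc, was 0.68 (SE 0.07, FDR = 6.80e-08) on the log2 scale. Its partner RPL11 (chr6:81523510-81526925) stood at 143, 179.9 and 256 CPM in the Duroc pigs and 157, 191 and 298 CPM in the Landrace pigs, ranges that overlapped widely, with an adjusted difference of 0.28 (SE 0.06, FDR = 0.0011).

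RPL4 (chr1:164476269-164481765), which lines the tunnel through which the new protein leaves, was at 434, 561 and 803 CPM in the Duroc pigs and 528, 663 and 1073 CPM in the Landrace pigs. The breeds overlapped, but 27 of 28 Landrace pigs were above the Duroc median. Its adjusted difference was 0.49 (SE 0.06, FDR = 1.22e-06). RPL27 (chr12:19892210-19894202), also of the large subunit, was at 98.7, 127 and 165 CPM in the Duroc pigs and 113, 141 and 245 CPM in the Landrace pigs, with 9 Landrace pigs above the highest Duroc pig and a difference of 0.49 (SE 0.07, FDR = 5.76e-06). RPL10 (chrX:124927249-124929791), which joins the large subunit late in its assembly, differed by 0.44 (SE 0.08, FDR = 1.55e-04). RPL36A (chrX:83018305-83022285), named here for its size after the values were seen, had the highest difference of the 41, 0.70 (SE 0.10, FDR = 8.58e-06). When counts from both strands were summed it was 0.64, below the 0.67 of RPL5.

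In the stalk, RPLP0 (chr14:40219196-40223943), the base to which the acidic proteins bind, was at 402, 518 and 703 CPM in the Duroc pigs and 476, 649 and 926 CPM in the Landrace pigs. Of the 13 Duroc pigs, 12 were below the Landrace median. The adjusted difference was 0.56 (SE 0.08, FDR = 5.76e-06). The acidic protein RPLP1 was higher in the Landrace pigs by 0.60 (SE 0.11, FDR = 1.43e-04), while its partner RPLP2, with 105, 125 and 206 CPM in the Duroc pigs and 83.6, 130.0 and 326 CPM in the Landrace pigs, gave 0.08 (SE 0.11, FDR = 0.634) and did not pass. The difference between the RPLP1 and RPLP2 estimates was not tested.

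In the small subunit, RPS25 (chr9:46237911-46242174), a protein of the head that some viral RNAs need for translation, was at 131, 179.8 and 283 CPM in the Duroc pigs and 178, 229 and 393 CPM in the Landrace pigs. Of the 28 Landrace pigs, 27 were above the Duroc median, and 6 Duroc pigs were below every Landrace pig. Its difference was 0.61 (SE 0.08, FDR = 1.53e-06). RPS4X (chrX:58149302-58155179), carried on the X chromosome, was at 259, 309 and 451 CPM in the Duroc pigs and 298, 378 and 477 CPM in the Landrace pigs, where the breeds overlapped, and differed by 0.48 (SE 0.06, FDR = 2.39e-06). RPS18 (chr7:29638856-29642912), in the head of the subunit, differed by 0.46 (SE 0.09, FDR = 2.07e-04). RPSA (chr13:24072551-24081536), also known as the laminin receptor precursor, reached 0.38 (SE 0.11, FDR = 0.0122) with 18 of 28 Landrace pigs above the Duroc median. RPS28 gave 0.26 (SE 0.12, FDR = 0.111).

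RPL3 (chr5:8922697-8929768) was the single member with an estimate below 0, -0.05 (SE 0.13, FDR = 0.817), at 11.96, 16.8 and 29.96 CPM in the Duroc pigs and 12.9, 17.8 and 30.97 CPM in the Landrace pigs. Skeletal and heart muscle also make its paralog RPL3L, which can take the place of RPL3 in the ribosome and which the symbol rule leaves out. RPL3L was at 157, 202 and 382 CPM in the Duroc pigs and 178, 243 and 418 CPM in the Landrace pigs, and the Landrace pigs were higher by 0.39 (SE 0.10, FDR = 0.00378).

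**Figure D2:**
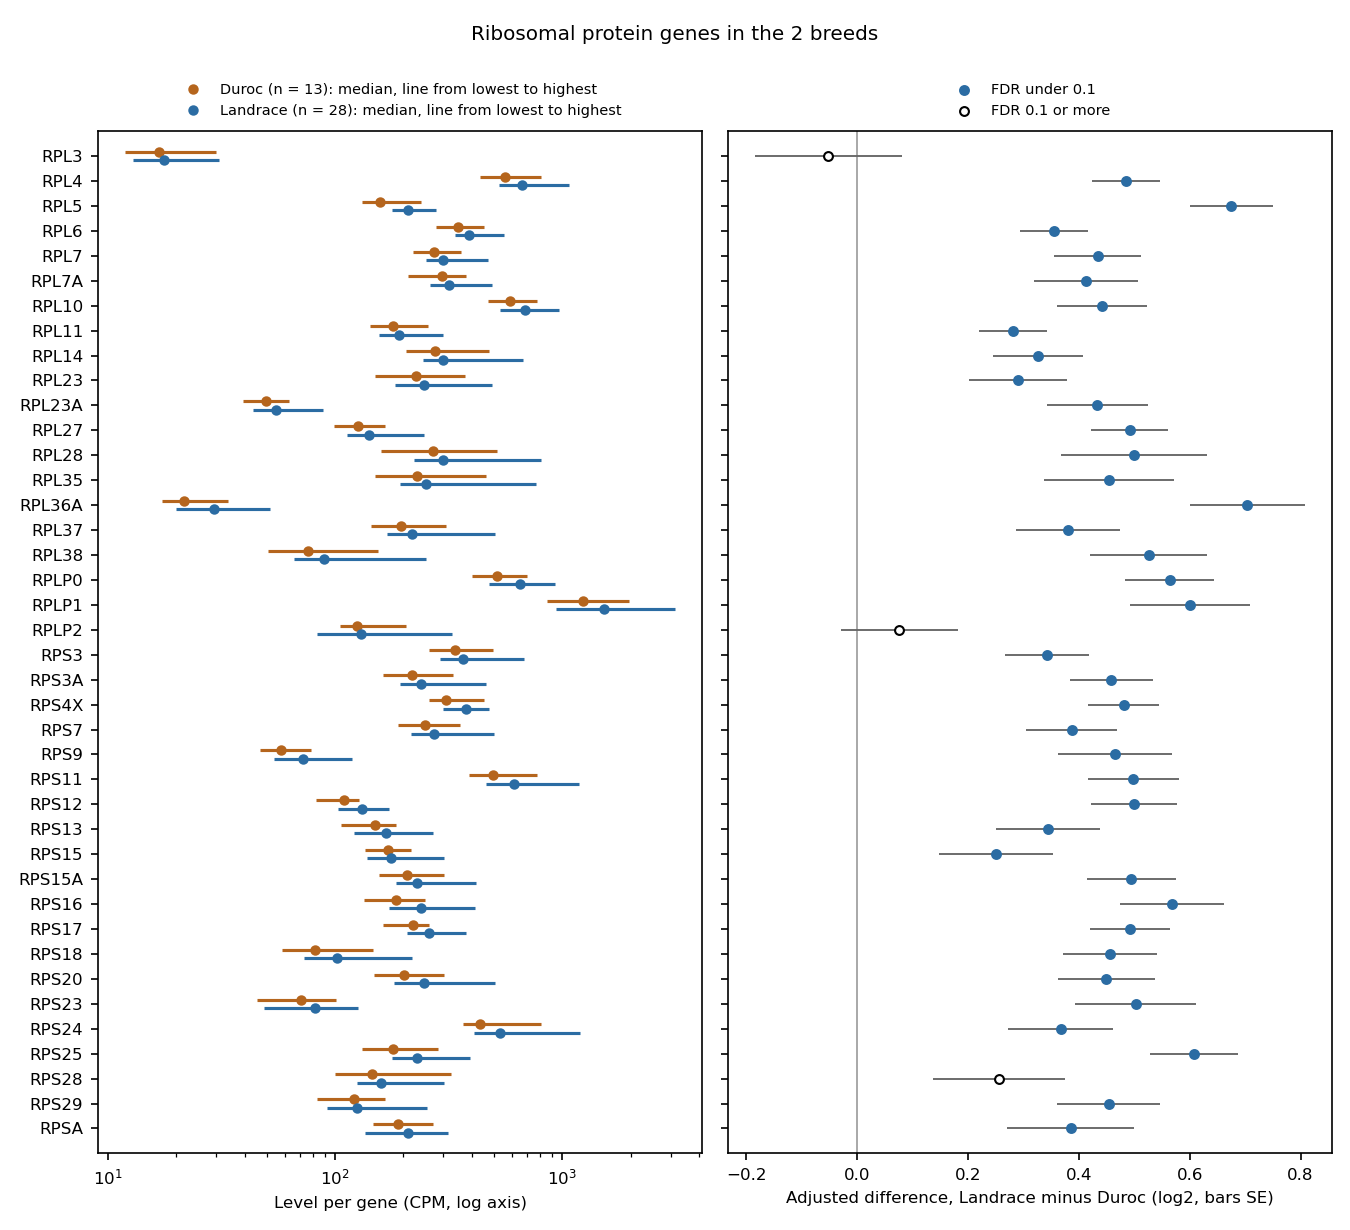
Left, CPM on a log axis for 40 of the 41 tested genes, with the median (point) and the range (line) of the 13 Duroc and 28 Landrace pigs. Right, the adjusted difference, Landrace minus Duroc, on the log2 scale with its SE, filled where the FDR was under 0.1: 37 of the 40 genes drawn are filled and above 0, and RPL3, RPLP2 and RPS28 are open. Without TMM scaling 39 of the 41 estimates were above 0.

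In the joint model 40 of the 41 estimates were above 0. Without any adjustment the Landrace mean was higher for 41 of 41 genes, against 50.4% of all tested genes. The median was 0.25 on the log2 scale, and only the sign of RPL3 differed. Within slaughter batches 2, 3, 4 and 5 the Landrace mean was higher for 39, 39, 41 and 40 genes, with medians of 0.24, 0.24, 0.51 and 0.46. Of all tested genes 53.4%, 49.6%, 49.2% and 49.6% were higher. These batches held 3, 2, 3 and 4 Duroc pigs and 12, 7, 2 and 7 Landrace pigs. Batch 1 held 1 Duroc pig alone. The number that passed depended on the model and the scaling. Without TMM scaling 32 of 41 were higher, where 4.79% of all tested genes were, and with breed as the only term 21 of 41, where 9.66% were. Within batches 2 and 3 (24 pigs) it was 35, against 5.47% of all genes, and within batches 4 and 5 (16 pigs) it was 5, against 1.32%.

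Other measures also moved with breed. The Landrace pigs were older and had a lower median RIN, 8.0 against 8.2. Of the 3 endothelial markers in the files all were lower in the Landrace pigs, and 4 of 5 skeletal muscle markers were higher. Summed without TMM scaling, the endothelial markers were at 44.8, 118 and 174 CPM in the Duroc pigs. In the Landrace pigs they were at 23.8, 79.7 and 138 CPM. In the other lists, 1 of 7 leukocyte, 1 of 5 fibroblast and 1 of 2 tested adipocyte markers were lower and 0 of 2 tested erythroid markers passed. Their part in the breed difference was not tested.

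The second comparison asked how the genes follow RNA integrity. Relative to the other genes, 38 of the 41 fell as RIN rose and 0 rose, where 27.9% of all tested genes fell and 23.9% rose. The same 38 were the members with an unadjusted p under 0.05, a level that 51.5% of all genes reached. The median change was -0.36 per RIN unit on the log2 scale, which is 22.3% less per unit, against -0.01 over all tested genes. When the totals were not scaled by TMM, the median of all genes moved to 0.30 per unit and that of the members to -0.05. On that scale 16 members fell and 4 rose, where 7.91% of all genes fell and 55.8% rose, and the distance between the medians was -0.35 on both scales.

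RPLP2 (chr2:507891-509818), an acidic protein of the stalk, fell most clearly. In the 5 pigs with a RIN of 7.1 or less (Landrace 1, Landrace 27, Duroc 10, Landrace 22 and Landrace 23, in order of RIN) it was at 267, 326, 206, 172 and 184 CPM, and the other 36 pigs had 83.6, 123 and 186 CPM as lowest, median and highest. All 5 were above the median of the others and 3 above their highest pig. The change was -0.74 (SE 0.07, FDR = 8.31e-09) per RIN unit.

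RPS18 was at 177, 217, 148, 116 and 131 CPM in those 5 pigs against 58.5, 86.6 and 146 CPM, and changed by -0.58 (SE 0.06, FDR = 1.29e-08). RPS20, its neighbour in the head of the small subunit, was at 433, 508, 303, 304 and 351 CPM against 148, 214 and 363 CPM and changed by -0.58 (SE 0.06, FDR = 1.46e-08). Both were above the median of the other pigs in all 5. RPL14, RPL37 and RPL38, proteins of the large subunit, changed by -0.51 (SE 0.06, FDR = 3.79e-08), -0.57 (SE 0.07, FDR = 5.58e-08) and -0.63 (SE 0.07, FDR = 5.64e-08). In 32 of the 41 genes all 5 pigs of lowest RIN were above the median of the others. This split was not adjusted for breed or batch and was not counted over all tested genes. All of these pigs but Duroc 10 were Landrace pigs, and all but Landrace 1 were of batch 5.

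The 3 members that did not pass were RPL5, RPS4X and RPL7. RPL5 was at 182, 179, 141, 218 and 277 CPM in the 5 pigs against 131, 204 and 279 CPM in the others, with 2 of 5 above the median, and gave 0.07 (SE 0.06, FDR = 0.314). RPS4X gave 0.02 (SE 0.05, FDR = 0.773) and RPL7, a large-subunit protein, -0.06 (SE 0.06, FDR = 0.423). All 3 were among the genes that were higher in the Landrace pigs, RPL7 by 0.43 (SE 0.08, FDR = 1.43e-04). The RIN estimates of RPL5 and RPS4X changed sign under other settings, without passing.

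Within the Landrace pigs 38 of 41 fell with RIN, where 23.1% of all tested genes did. In batches 2 and 3 it was 33, against 17.2%, and in batches 4 and 5 it was 29, against 15.3%. Without the 2 pigs with a RIN below 7, 35 fell, against 20.1%. Among the 13 Duroc pigs 0 passed, with a median of -0.20 and 2 at an unadjusted p under 0.05, in a fit where 0 of all 10509 genes passed and 17.4% were under 0.05. The difference between the breeds was tested as a product of RIN and breed: 0 members passed, by edgeR or by limma, and 3 had an unadjusted p under 0.05 with either tool, where 4.85% (edgeR) and 4.10% (limma) of all genes did. Of all genes, 0 passed with edgeR and 1 with limma. The smallest p was that of RPL23A, 0.0027 (FDR = 0.844). Without the 2 pigs with a RIN below 7, 123 of all genes passed and 12.6% were under 0.05, while 0 members passed, 2 were under 0.05 and RPL23A had an FDR of 0.121 with edgeR.

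Markers of several cell types also moved with RIN. Of 5 fibroblast markers 2 rose and 0 fell, LUM by 1.06 (SE 0.25, FDR = 7.17e-04) and COL3A1 by 0.93 (SE 0.29, FDR = 0.00868) per unit. Both tested erythroid markers fell, among them the globin gene HBB by -1.26 (SE 0.35, FDR = 0.00335). Of 7 leukocyte markers 2 fell, and of 5 skeletal muscle markers 1 rose and 2 fell. None of the 3 endothelial and 2 tested adipocyte markers passed with edgeR. Their part in the relation to RIN was not tested.

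**Figure D3:**
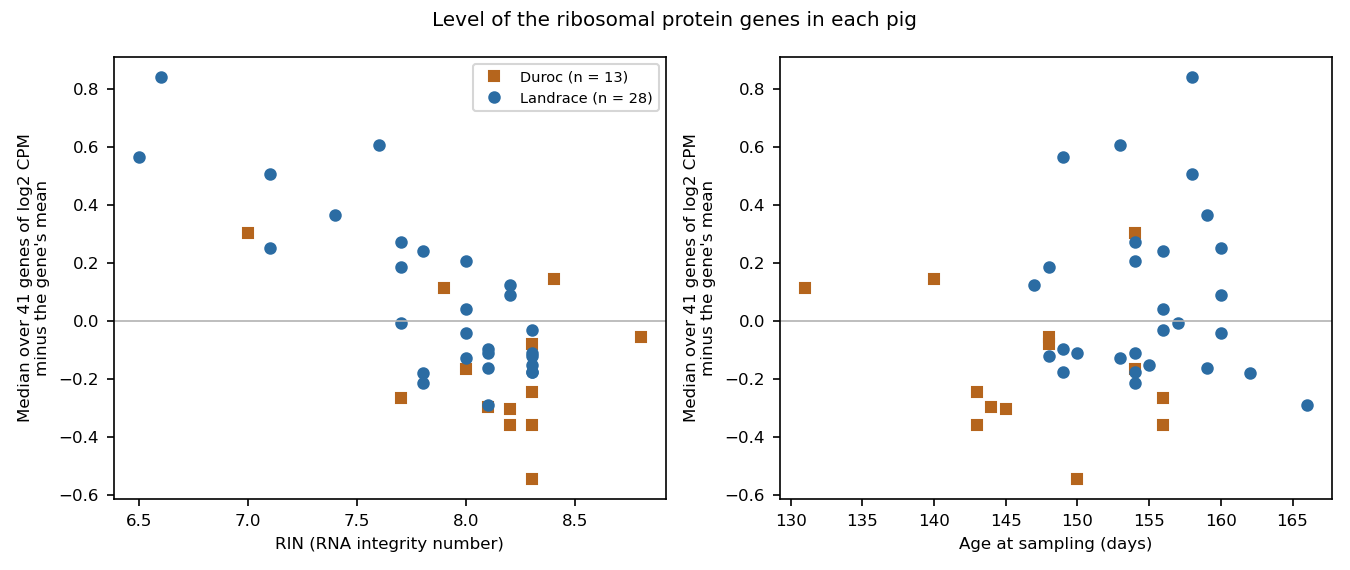
Median over the 41 tested genes of log2 CPM minus the gene's mean, for each pig (squares Duroc, circles Landrace), against RIN (left) and age in days (right). The pigs of lowest RIN lie high, led by Landrace 27 at 0.84, and the lowest pig, Duroc 3, is at -0.55; the youngest pig, Duroc 13 at 131 days, lies at 0.11.

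The third comparison was age. In the joint model 8 of 41 genes fell with age and 0 rose, where 0.727% of all tested genes fell and 1.03% rose. The estimate was below 0 for 40 of 41 genes with a median of -0.18 per 10 days (11.9% less), and 29 had an unadjusted p under 0.05, against 16% of all genes. The 3 with the smallest p were RPL27 at -0.24 (SE 0.05, FDR = 0.0392), RPS15A of the small-subunit body at -0.28 (SE 0.06, FDR = 0.0392) and RPS3A, also of the small-subunit body, at -0.26 (SE 0.06, FDR = 0.0392) per 10 days. RPL14, RPL4, RPL23A, RPL7 and RPS12 also passed. Of these RPL23A sits at the exit of the protein tunnel and changed by -0.26 (SE 0.07, FDR = 0.081), and by -0.16 (SE 0.06, FDR = 0.166) when counts from both strands were summed, where it did not pass.

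These age calls rested on few pigs and on the processing. Without TMM scaling 0 members passed with edgeR (0.0179% of all genes fell), and without a filter on low counts 4 fell (0.242% of all genes). The youngest, Duroc 13, had 165 CPM of RPL27 against 98.7, 124 and 161 CPM in the other 12 Duroc pigs, and 274 CPM of RPS15A against 156, 206 and 303 CPM. It was above the median of the other Duroc pigs in 41 of 41 genes. That count describes 1 pig, since the members move together, and it was not made over all tested genes. Without Duroc 13, 0 members passed with edgeR (and 0 of all genes fell or rose), and the median was -0.14. The calls over all genes, 81 falling with all pigs in the fit, also changed, but not always in step with those of the members. Without Landrace 17, 53 of all genes and 9 members fell, and without Duroc 12, 144 and 9. The number of members was 2 without Landrace 15, the oldest pig at 166 days (14 of all genes fell). It was 3 without any one of Landrace 11, 20 and 24 (16 to 27 of all genes), and 4 without any one of Duroc 5 and Landrace 3, 8 and 14 (40 to 51). It was 5 without any one of Duroc 4, Duroc 6 and Landrace 16 (38 to 49), and 20 without Duroc 7 (181). Within either breed alone, or within batches 2 and 3 or 4 and 5 alone, 0 members passed, where 0 or 1 of all genes fell. The median was -0.19 in the Landrace pigs and -0.20 in the Duroc pigs. It was -0.20 in batches 2 and 3 and 0.00 in batches 4 and 5. In the same order 14, 7, 28 and 0 members had an unadjusted p under 0.05. Of all genes 1233 of 11020, 368 of 10509, 1348 of 11262 and 203 of 10431 did. With age as the only term all 41 estimates were above 0 (median 0.07) and 0 passed. The Landrace pigs were the older ones, with a median of 154.5 days against 148 days. Of the 3 endothelial markers, 2 rose with age, KDR by 0.72 (SE 0.19, FDR = 0.0693) and CDH5 by 0.45 (SE 0.13, FDR = 0.0965) per 10 days, and no marker of the other lists passed. Their part in the relation to age was not tested.

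**Figure D4:**
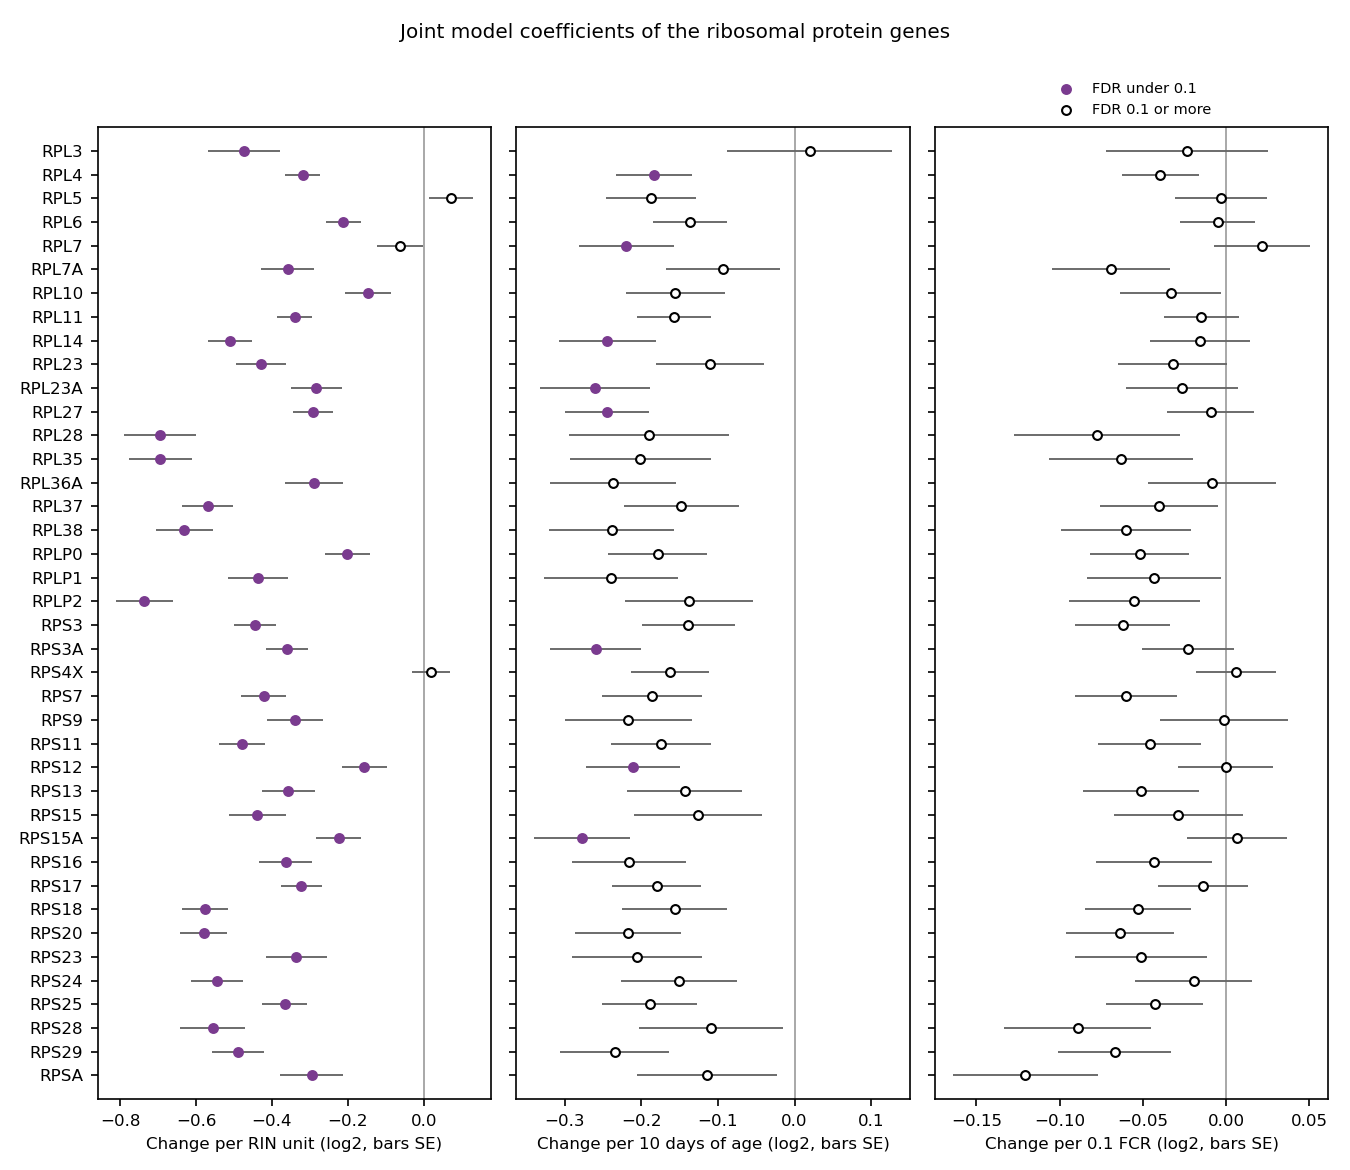
Change of 40 of the 41 tested genes in the joint model, per RIN unit (left), per 10 days of age (middle) and per 0.1 FCR (right), on the log2 scale with SE, filled where the FDR was under 0.1. With TMM scaling 37 of the 40 genes drawn are filled for RIN, 8 for age and 0 for FCR, and without TMM scaling 16 of all 41 fell and 4 rose with RIN.

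The last comparison was feed efficiency, the trait the study was designed around. No member passed for FCR in either direction, and neither did any of the 11146 genes (0% called) with edgeR. With DESeq2, which called 5 genes in all, and with limma, 0 members passed. With edgeR, 4 members had an unadjusted p under 0.05 (8.68% of all genes did). Estimates were below 0 for 38 of 41 genes with a median of -0.04 per 0.1 FCR, but without TMM scaling 30 of 41 were above 0. They also depended on the covariates. Without age in the model 18 members were under 0.05 (12.2% of all genes), and 0 estimates were above 0 (median -0.07). With FCR as the only term 38 of 41 were above 0 (median 0.04) and 1 was under 0.05 (10.7%). In both fits 0 members passed.

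RPSA had the smallest p, with -0.12 (SE 0.04, FDR = 0.529) per 0.1 FCR, and RPS3, which sits where mRNA enters the small subunit, followed with -0.06 (SE 0.03, FDR = 0.551). RPS28 was also under 0.05, at -0.09. On the other side RPL7 gave 0.02 (SE 0.03, FDR = 0.831) and RPS4X 0.01 (SE 0.02, FDR = 0.954). The SE of the members ran from 0.023 (RPL6) to 0.0497 (RPL28) on the log2 scale per 0.1 FCR. The product of FCR and breed gave 0 calls with edgeR and with limma, and 0 members under an unadjusted p of 0.05, where 5.22% (edgeR) and 5.20% (limma) of all genes were.

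How the pairs were counted bears on several members. The files also hold counts restricted to either strand, and their sum can exceed the unstranded count where annotated genes on opposite strands overlap. For 33 of the 45 genes the sum was within 1.02 times the unstranded total. For 9 it was over 1.5 times: RPL23A (6.15 times), RPL3 (2.95), RPS9 (2.49), RPL36A (2.32), RPL5 (1.56), and the 4 genes that were not tested. In the sum, pairs from a gene and from an overlapping antisense gene cannot be told apart, because the libraries carry no strand. RefSeq places RPL29 (chr13:34119541-34121842) over ACY1 and RPS2 (chr3:39996179-40003110) over RNF151 and NDUFB10. For the other 7 no overlapping gene was found in RefSeq, and the Ensembl annotation with which the pairs were counted was not used here.

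**Figure D5:**
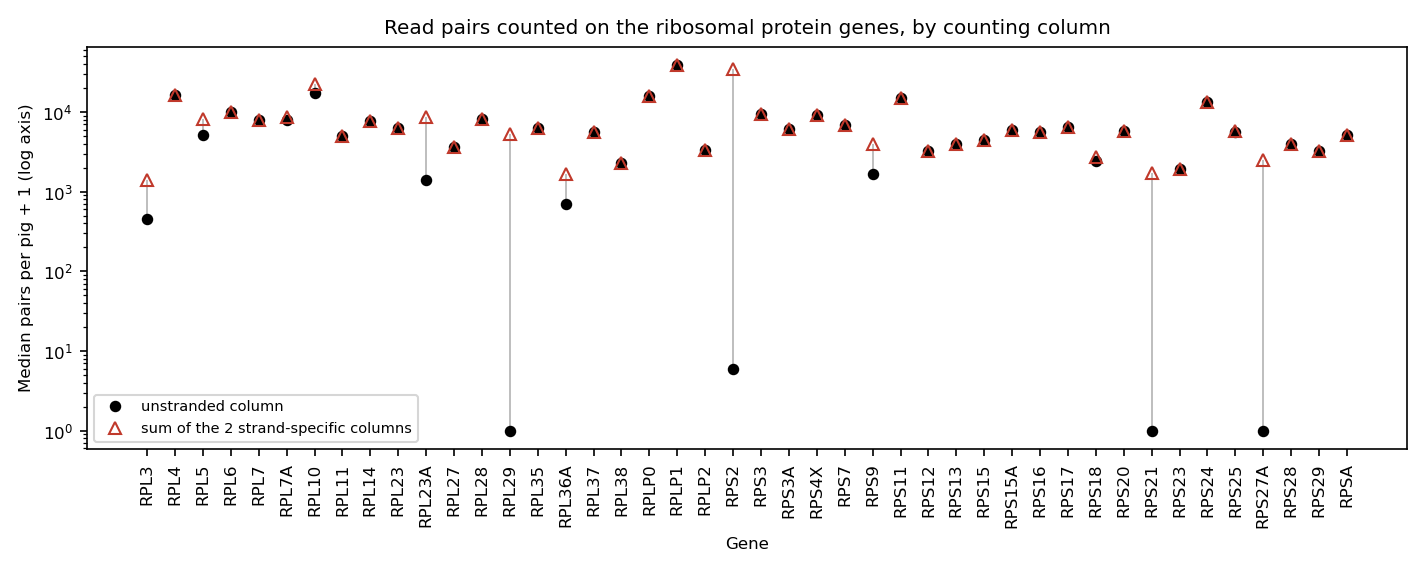
Median count of read pairs per pig plus 1, on a log axis, for 44 of the 45 genes in the unstranded column (points) and in the sum of the strand-specific columns (triangles). RPL29, RPS2, RPS21 and RPS27A are at or near 0 in the first and between 1724 and 34685 in the second.

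When the sum was fitted, all 45 genes could be tested. Of these, 43 were higher in the Landrace pigs and 0 lower (16.8% of all 11688 genes in that fit were higher), 40 fell with RIN (25.4% of all did), 11 fell with age (0.83%) and 0 passed for FCR. Of the 4 genes gained, RPS27A, which is made as a fusion with ubiquitin, differed by 0.53 (SE 0.08, FDR = 1.43e-05) between breeds, RPS21 by 0.49 (SE 0.12, FDR = 0.0022), RPS2 by 0.46 (SE 0.15, FDR = 0.0229) and RPL29 by 0.38 (SE 0.09, FDR = 0.00183). RPL3 became -0.25 (SE 0.14, FDR = 0.186) for breed and -0.11 (SE 0.10, FDR = 0.401) for RIN, so that its fall with RIN no longer passed. The fall of RPS12 with RIN was lost too, at -0.08 (SE 0.06, FDR = 0.266) against -0.16 (FDR = 0.0281), although its sum was within 1.02 times the unstranded total. With age RPL23A was lost and RPL36A, RPL5 and RPS25 were gained, and for breed RPS28 was gained at 0.26 (SE 0.11, FDR = 0.0855). RPL5 kept its breed difference at 0.67 (SE 0.07, FDR = 5.68e-08). Besides this, ribosomal protein genes have many near-identical processed copies in mammalian genomes, and pairs that aligned to several places (2.48% to 3.75% of pairs) were not counted on any gene.

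Genes near the set in function, taken from lists, were read beside it. Of the 5 tested paralogs with like endings, 3 were higher in the Landrace pigs and 5 fell with RIN (median -0.44). RACK1, a scaffold protein on the small subunit, was higher in the Landrace pigs by 0.32 (SE 0.07, FDR = 0.00172). FAU, which encodes a small-subunit protein fused to a ubiquitin-like part, was counted at a low level, 2.65 to 7.66 CPM over all pigs, and gave 0.01 (SE 0.14, FDR = 0.982). Of 17 other genes known for TOP mRNAs (a list that also holds RACK1 and FAU), 14 were higher in the Landrace pigs and 0 lower, with a median of 0.36 (15.6% and 17.5% of all tested genes). Among them were TPT1, a translationally controlled growth protein, at 0.74 (SE 0.09, FDR = 5.18e-07), and the elongation factor subunits EEF1D at 0.73 (SE 0.10, FDR = 2.51e-06) and EEF1B2 at 0.54 (SE 0.08, FDR = 8.77e-06). With RIN, 8 of these 17 fell and 2 rose (27.9% and 23.9% of all tested genes), and with age 5 fell (0.727%), among them EIF4A2 at -0.33 (SE 0.07, FDR = 0.0366) per 10 days.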

How the data were processed

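RNA from the psoas major muscle of 41 pigs was sequenced by the authors as unstranded pairs of 100 bases. They trimmed the pairs with Trimmomatic 0.39 and aligned them to Sscrofa11.1 with STAR 2.7.1a and Ensembl annotation 96. The deposited values are whole counts of pairs per gene, without normalization or filtering, as STAR gives them. The unstranded column was used. Pairs on more than 1 gene, or aligned to several places, were not counted, and 69.9% to 80.9% of pairs were.

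Breed, RIN, age, FCR and batch came from the labels, and the samples are separate pigs. Genes were filtered with filterByExpr and fitted on all 41 pigs with TMM in edgeR 4.0.16 (R 4.3.3, quasi-likelihood test in its legacy form, batch as a factor of 5 levels, FDR threshold 0.1 over all genes). DESeq2 1.42.0 (at least 5 counts in every pig) and limma 3.58.1 with voom were alternatives, together with other scalings, filters, covariates, samples and each pig left out in turn. Counting error is included in the models and is small at these depths. The steps were tested on simulated data. Tests were two-sided. Gene names and positions came from RefSeq tables of the same build. Of 25880 gene IDs, 14857 had a symbol.

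The members and the lists (like-ended paralogs, other ribosomal proteins, ribosome biogenesis, TOP mRNAs, mTORC1 and TOP control, mitochondrial ribosomal proteins, proteasome core and cell type markers) were chosen with earlier results of these data known. The text names, for each term, up to 6 members per direction with the smallest p among those that passed, or 2 where none passed, a fixed set of well-known members, the 5 members of highest and of lowest variation, and up to 4 genes per list. Naming members by level per length could not be done without transcript lengths, and no levels are compared between genes. RPL36A, RPLP1 and members that make up a count of 5 or fewer were named after their values were seen. No sequences were used here. The values of 1 member are not reported here by name or in the figures that list genes, but it is counted in all summaries.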

Additional observations from a re-analysis of the deposited data

Results flagged for a closer look

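4 members that could not be tested in the unstranded counts held pairs in the strand-specific columns, which the comparisons above did not use as their main measurement. RPL29 had a median of 5237 pairs per pig there against 0, RPS2 had 34685 against 5, RPS21 had 1724 against 0, and RPS27A had 2497 against 0. There is no control sample for this, and the values lie above the 3 counts that a count of 0 allows. How much of these pairs belongs to an overlapping gene on the other strand was not tested.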

How the results depend on the processing

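The count of members higher in the Landrace pigs (38) stayed within 1.5 times under all alternatives but 2, which gave 21 (breed as the only term) and 5 (batches 4 and 5). It ranged from 37 to 39 with each pig left out. The count falling with RIN (38) was 36 to 38 with each pig left out. It was 16, with 4 rising, when totals were not scaled by TMM, and 0 in the Duroc pigs alone. That change of scaling moved the median of all genes by -0.18 for breed, 0.31 per RIN unit, 0.07 per 10 days and 0.06 per 0.1 FCR. The count falling with age (8) was 20 with DESeq2 (2.17% of all genes in that fit), 30 with batch as a number (3.31%), 4 without a filter on low counts (0.242%) and 0 without TMM scaling, with age as the only term, in either breed alone, and in batches 2 and 3 or 4 and 5. It ranged from 0 to 20 with each pig left out. Counts for FCR stayed at 0 under every alternative, with TMM factors from other genes as well. Leaving out the 2 pigs with the fewest counts on genes, an alternative chosen after the data were seen, gave 38, 38, 7 and 0 members for breed, RIN, age and FCR. Of all genes in that fit 15.9% were higher in the Landrace pigs, 20.2% fell with RIN, 1.04% fell with age and 0% passed for FCR. The causes were not tested.

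Single estimates changed sign as follows, none of them past the threshold on the new side. RPL7 with FCR was -0.0117 without age, -0.00777 in the Landrace pigs and -0.0363 in batches 2 and 3. RPS4X with FCR was -0.0194, -0.0303 and -0.0274 in the same fits and -0.00539 without the 2 pigs of fewest counts. RPS3 with FCR alone was 0.00675. RPL5 with RIN was -0.0821 from the strand-specific columns, -0.0643 with RIN alone and -0.0649 without the 2 pigs with a RIN below 7. RPS4X with RIN was -0.00456 without age, -0.0984 alone, -0.0187 without the pigs with a RIN below 7 and -0.00472 without those of fewest counts. With age alone, RPL14 was 0.0399, RPL23A 0.000752, RPL27 0.0547, RPL4 0.0798, RPS15A 0.0511 and RPS3A 0.0244, and RPL23A was 0.111 in batches 4 and 5. RPL3 with age was -0.121 in the Duroc pigs, -0.0252 in batches 2 and 3 and -0.0133 without the 2 pigs of fewest counts. For breed, RPL3 was 0.0850 alone and 0.182 in batches 2 and 3. With each pig left out, the estimates ran from -0.00272 to 0.0292 for RPL7 and from -0.00704 to 0.0142 for RPS4X with FCR, from -0.00168 to 0.0530 for RPS4X with RIN and from -0.0278 to 0.0905 for RPL3 with age. Of the other estimates of named members, 75 were the same in direction but no longer passed, 66 of them for age. Replicate numbers only name the pigs, so no paired analysis was possible because no label pairs them.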

Other observations

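Of all tested genes, 15.6% were higher and 17.5% lower in the Landrace pigs, 27.9% fell and 23.9% rose with RIN and 0.727% fell with age. Of 62 tested genes for ribosome biogenesis, 14 were higher in the Landrace pigs and 0 lower (median 0.14 on the log2 scale), 28 fell and 11 rose with RIN, and 1 fell with age. SBDS, which helps to release a factor that keeps the subunits apart, was at 57.8, 70.6 and 94.7 CPM in the Duroc pigs and 76.8, 90.1 and 140.2 CPM in the Landrace pigs, a difference of 0.57 (SE 0.08, FDR = 1.97e-06). NPM1, an abundant nucleolar protein, differed by 0.31 (SE 0.07, FDR = 0.00232), and POLR1D, a subunit shared by RNA polymerases I and III, by 0.41 (SE 0.11, FDR = 0.00445). Of 23 tested genes of mTORC1 and of TOP mRNA control, 6 were higher and 2 lower in the Landrace pigs (median 0.12), while 6 rose and 8 fell with RIN and 1 fell with age. TBC1D7, a subunit of the TSC complex that restrains mTORC1, was at 7.57, 10.4 and 13.3 CPM in the Duroc pigs and 13.4, 20.0 and 27.1 CPM in the Landrace pigs, where no Duroc pig exceeded the lowest Landrace pig, and differed by 1.30 (SE 0.10, FDR = 1.90e-11). LARP1 rose with RIN by 0.70 (SE 0.11, FDR = 7.42e-06) per unit.

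The ribosomal proteins of mitochondria are encoded by other genes. Of 58 tested, 10 were higher and 3 lower in the Landrace pigs (15.6% and 17.5% of all tested genes), with a median of 0.03. With RIN 42 fell and 2 rose (27.9% and 23.9% of all tested genes). Their median was -0.36, the same as that of the cytosolic genes to 2 decimals. Of 11 tested genes of the proteasome core, 3 were higher and 0 lower in the Landrace pigs (median 0.16), and 10 fell with RIN (median -0.39). No gene of these 4 lists passed for FCR with edgeR, where 0% of all 11146 tested genes did. MRPS11, a mitochondrial ribosomal protein, had the smallest p of them, with -0.14 (SE 0.03, FDR = 0.284) per 0.1 FCR. The study names MRPS11 among the genes it called for FCR in both breeds together, with a tool other than edgeR. Differences between the lists were not tested.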
